A study of Hakea laurina with 6 samples.

Results

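The enzymes described here are the cytochrome P450s, terpene synthases, UDP-dependent glycosyltransferases (UGTs) and 2-oxoglutarate and Fe(II)-dependent oxygenases (2OG oxygenases) of *Hakea laurina* cluster roots. They were taken from the authors' table of annotated contigs called different between 2 root types, the tips of lateral roots that bear clusters (TCR) and mature cluster roots (MCR). A contig was taken where the Arabidopsis description held the words cytochrome P450, terpen, UDP-glycosyl, UDP-glucosyl or 2-oxoglutarate (2OG) and all 3 libraries of 1 root type reached 1 CPM (reads per library scaled to a common total). Of the authors' 7819 annotated contigs 195 carried such a description, and 127 of these passed the CPM minimum. The 127 contigs, of 183999 in the count table, comprised 57 P450, 45 UGT, 20 2OG oxygenase and 5 terpene contigs. They matched 78 different Arabidopsis genes. Nearest to the minimum, the weakest library of the deciding root type held 1.09 CPM (deposited values) for contigs DN33743_c0_g1 (CYP78A7) and DN23670_c1_g1 (UGT88A1), which were kept, and 0.958 and 0.966 CPM for DN8414_c0_g1 (CYP71B10) and DN24816_c0_g1 (CYP72A15), which were not. Because the members were drawn from contigs already called in MCR against TCR, their differences between root types are given as a description and carry no test.

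RNA-Seq was performed on 3 libraries of each root type, all from plants about 3 years old that were raised in hydroponics on low P, with 6.4 µM phosphate given every 2 to 3 months. No other genotype or treatment was included. The labels do not say whether the libraries of 1 root type came from separate plants, so that the spread given is that between these libraries. The library titles and the deposited tissue labels disagree, because each tissue label names the other root type. The titles were followed, and if the tissue labels were right MCR and TCR would change places in every comparison.

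P450s are haem enzymes of the endoplasmic reticulum that insert oxygen into hormones, sterols, fatty acids, phenylpropanoids and terpenoids, with electrons from a NADPH-dependent reductase. 2OG oxygenases are soluble and perform similar oxidations, UGTs attach sugars that make small molecules soluble, mobile or inactive, and terpene synthases build the carbon skeletons of monoterpenes, sesquiterpenes and gibberellin precursors. Together these families make much of the specialized metabolism of plants and set the level of several hormones, and in roots they contribute to suberin, lignin, flavonoids, coumarins and defence compounds.

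The libraries held between 13583740 (TCR1) and 19119494 (MCR3) estimated counts. Values below are CPM after TMM normalization, listed in the order of replicates 1, 2 and 3, and fold changes are log2 of MCR over TCR with the standard error (SE) of the fit over 3 libraries per root type. Where contigs are ranked by level, the order is that of CPM. CPM is not divided by contig length, hence levels were compared between root types and not between contigs. The third libraries stood apart. Over all 49813 contigs tested the rank correlation of TCR3 with MCR3 was 0.871. Those of TCR3 with TCR1 (0.829) and TCR2 (0.826) and of MCR3 with MCR1 (0.626) and MCR2 (0.515) were lower. MCR3 was also closer to TCR1 (0.732) and TCR2 (0.729) than to the other MCR libraries. TCR3, by contrast, was closer to TCR1 and TCR2 than to MCR1 (0.586) and MCR2 (0.437). All 4 of the root meristem marker genes past the minimum, of 10 in the list, were higher in the libraries titled TCR, with sums of 106 to 209 CPM against 13.5 to 32.1 CPM in MCR, and PLT1, a regulator of the root stem cell niche, held 0.0608 to 0.0679 CPM in the MCR libraries. Below the minimum, 2 more contigs of the meristem list were higher in MCR and 1 in TCR. Of the other tissue markers past the minimum, 1 root cap and 2 xylem contigs were higher in TCR, 1 root hair contig was higher in MCR, and of 4 endodermis contigs 3 were higher in TCR. Below the minimum, 3 xylem contigs and 1 root hair contig were higher in MCR. Of 13 contigs matched to 4 P-starvation genes, of 7 in the list, 11 were higher in MCR. Their sums were 6455 to 10741 CPM in MCR and 952 to 1048 CPM in TCR. Most of these contigs matched the purple acid phosphatase PAP10, which made up most of the sums. Of the other genes, SPX1 was called higher in MCR, the phosphate transporter ATPT1 overlapped between root types and PAP17 was higher in TCR. Hence the meristem markers past the minimum were high in the libraries titled as root tips, where the meristem lies, and the tissue labels would place them in mature cluster roots. Whether a lower level in 1 root type came from fewer cells of a type or from less RNA per cell cannot be told apart in whole root samples.

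Of the 127 contigs, 75 were higher in MCR and 52 higher in TCR. The threshold (edgeR, adjusted p below 0.05 with at least 1 log2 unit between root types) was passed by 43 contigs on the MCR side and 29 on the TCR side, whereas 55 did not pass it. Over all 49813 contigs tested, 8.39% were called, 2.40% higher in MCR and 5.98% higher in TCR, and since the members were chosen from called contigs nothing is read from their share. The 3 MCR libraries lay above the 3 TCR libraries in 58 contigs and below them in 45, against 10.7% and 20.3% of all contigs tested, and the root types overlapped in 24 contigs, none of which was called. The median log2 fold change was 1.85 for the members and 0.57 for all contigs tested. For the 4604 annotated contigs past the same minimum it was −2.21. Of these 25.5% were higher in MCR, compared with 59.1% of the members. The shares hold only for contigs past the minimum, since 65 of the 68 contigs of these families that missed it were higher in MCR. Other scalings moved the median of all contigs to 0.84 (RLE) or 0.37 (library size alone) and that of the members to 2.13 or 1.67, without turning the sign of any member. With the replicate number as a block 68 contigs were called higher in MCR and 52 higher in TCR. The counts were 13 and 6 without TCR1, and 14 and 7 without TCR2. With TCR3 and MCR3 both left out 56 and 42 contigs were called, and 73 had the higher mean in MCR.

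**Figure D1:**
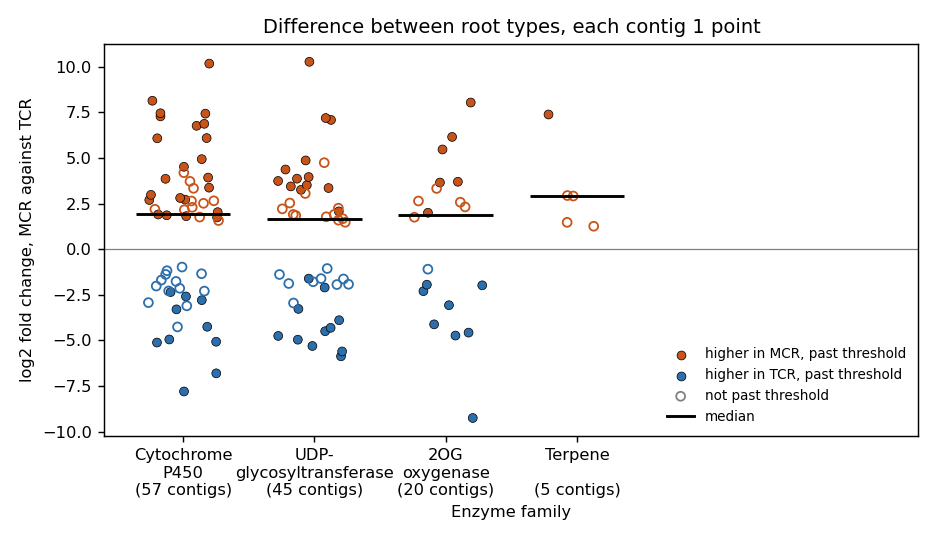
Log2 fold change of MCR over TCR (vertical axis) for each of the 127 contigs, by enzyme family, with the family median as a line and contigs past the threshold filled. P450, UGT and 2OG contigs lay on both sides of 0, and all 5 terpene contigs lay above 0.

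The P450 contigs were the largest family, with 34 higher in MCR (23 called) and 23 higher in TCR (10 called). Their summed level was 6355 to 8256 CPM in MCR and 3433 to 3674 CPM in TCR. In MCR the sum of the CYP82C contigs was 1054 to 1820 CPM, compared with 29.8 to 43.7 CPM in TCR. In Arabidopsis CYP82C4 hydroxylates the coumarin fraxetin to sideretin in iron-starved roots, and CYP82C2 hydroxylates an indole-derived defence compound. Of 7 such contigs 6 were higher in MCR, and all 7 were called. The contig with the widest gap, DN4096_c0_g2 (CYP82C2), held 0.716, 0.490 and 0.599 CPM in TCR and 715, 538 and 850.3 CPM in MCR, with a log2 fold change of 10.17 ± 0.43. Contig DN3229_c0_g1 (CYP82C4) held 2.08, 1.78 and 2.07 CPM in TCR and 94.8, 319 and 611 CPM in MCR, with a log2 fold change of 7.43 ± 0.79. In both contigs every MCR library was far above every TCR library, while the MCR libraries of CYP82C4 differed among themselves, MCR1 being the lowest. A further CYP82C4 contig, DN35224_c0_g2, lay in the other direction, with 11.5, 11.6 and 7.57 CPM in TCR and 1.70, 1.19 and 2.19 CPM in MCR. The matched genes stand close together on Arabidopsis chromosome 4, CYP82C4 at 15452040 to 15453966 and CYP82C2 at 15462408 to 15464358 (TAIR10), which describes the Arabidopsis match and not the *H. laurina* genome.

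The single CYP82G1 contig, DN31331_c0_g1, was called higher in MCR. CYP82G1 forms volatile homoterpenes in Arabidopsis leaves. The contig held 0, 0.0613 and 0.163 CPM in TCR and 8.28, 5.93 and 31.4 CPM in MCR, so that it was close to 0 in all TCR libraries.

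The CYP72A subfamily includes gibberellin 13-hydroxylases in Arabidopsis, of which CYP72A9 is one. Of 6 CYP72A contigs 5 were higher in MCR (4 called) and 1 was higher in TCR (called), and the 4 matched genes lie near each other on Arabidopsis chromosome 3, from the start of CYP72A8 at 4914978 to the end of CYP72A15 at 4939310. The CYP72A13 contig DN148_c0_g1 was abundant in both root types, with 159, 178 and 208 CPM in TCR and 507, 904 and 566 CPM in MCR. The CYP72A15 contig DN1595_c0_g2 held 0.429, 0.552 and 0.218 CPM in TCR and 80.4, 91.3 and 17.0 CPM in MCR, the third MCR library being the lowest. The CYP72A9 contig DN1595_c2_g1 had 3 counts in all TCR libraries and 912 in the MCR libraries, a ratio of 313 with a 95% counting interval of 107 to 1522. The exception was another CYP72A15 contig, DN3148_c0_g2, with 12.2, 12.6 and 8.06 CPM in TCR and 0.747, 0 and 0.304 CPM in MCR. Thus 2 contigs with 1 Arabidopsis match were nearly absent from opposite root types.

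CYP78A enzymes promote organ growth in Arabidopsis, CYP78A5 (KLU) and CYP78A6 among them, by a route that is not fully known. All 6 CYP78A contigs were higher in MCR, although 2 were called and 1 overlapped between root types. Their summed level was 257, 189 and 264 CPM in MCR and 12.6, 13.5 and 64.1 CPM in TCR. The called CYP78A6 contig DN3724_c0_g1 held 1.15, 0.919 and 0.0544 CPM in TCR and 2.92, 74.0 and 65.5 CPM in MCR, so that MCR1 was far below the other MCR libraries. The CYP78A7 contig DN9470_c0_g1, not called, held 7.01, 6.93 and 24.4 CPM in TCR and 178, 6.99 and 56.4 CPM in MCR, and MCR2 was within the TCR range.

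Other P450 contigs of high level in MCR were those of CYP89A6, CYP706A and CYP710A1. The CYP89A6 contig DN521_c0_g1 held 25.3, 34.2 and 49.8 CPM in TCR and 695, 621 and 269 CPM in MCR, with a log2 fold change of 3.86 ± 0.48. The CYP706A6 contig DN1136_c0_g1 held 189, 231 and 197 CPM in TCR and 274, 1949 and 809 CPM in MCR and was not called, MCR1 lying close to TCR. CYP710A1, the C22 desaturase that makes stigmasterol in Arabidopsis, was matched by DN57728_c0_g1 with 45.2, 39.3 and 66.2 CPM in TCR and 262, 171 and 544 CPM in MCR and was called. A gibberellin-inactivating P450, CYP714A1, was matched by DN2221_c0_g1 with 2.65, 3.31 and 1.80 CPM in TCR and 20.5, 28.4 and 5.47 CPM in MCR, and it was called as well.

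P450 contigs higher in TCR included those of flavonoid and brassinosteroid synthesis. Of the 2 sterol contigs, CYP710A1 (above) was called higher in MCR and CYP51G1 was higher in TCR without being called. CYP75B1 (TT7), the flavonoid 3′-hydroxylase, was matched by 2 contigs, both called higher in TCR. Contig DN892_c0_g1 held 664, 743 and 493 CPM in TCR and 83.9, 27.2 and 82.1 CPM in MCR, with a log2 fold change of −3.30 ± 0.49. Contig DN3959_c0_g1 held 266, 235 and 626 CPM in TCR and 19.0, 4.05 and 10.5 CPM in MCR, with a log2 fold change of −5.07 ± 0.72. The lowest TCR library exceeded the highest MCR library several-fold in each of the CYP75B1 contigs, and TCR3 was the lowest TCR library in the former and the highest in the latter.

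Brassinosteroids are growth-promoting steroid hormones of dividing and elongating tissue, and all 3 contigs of their synthesis were higher in TCR. CYP90D1, a C23 hydroxylase of the pathway, was matched by DN274_c2_g1 with 16.9, 15.2 and 6.48 CPM in TCR and 0.543, 0.0624 and 0.486 CPM in MCR. The CPD (CYP90A1) contig DN5332_c0_g1 held 8.30, 9.50 and 6.97 CPM in TCR and 1.09, 1.37 and 1.09 CPM in MCR. The contig of DWF4 (CYP90B1), the C22 hydroxylase, DN6521_c0_g2, held 8.80, 6.31 and 5.33 CPM in TCR and 1.63, 0.374 and 0.669 CPM in MCR and was not called, though the root types did not overlap. The levels of all 3 were low, the highest library holding 16.9 CPM. CYP51G1, the sterol 14α-demethylase upstream of both sterols and brassinosteroids, was matched by DN2628_c0_g1 with 194, 190.1 and 155 CPM in TCR and 21.6, 16.3 and 121 CPM in MCR, and MCR3 was near the TCR libraries. The 4 meristem markers and 3429 of the 4604 annotated contigs past the minimum were higher in TCR too. The part of any cell type in these differences was not tested.

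CYP76C1, which oxidizes the monoterpenol linalool in Arabidopsis flowers, was matched by DN13178_c0_g1, called higher in TCR with 31.3, 29.0 and 26.5 CPM in TCR and 2.71, 0.437 and 1.40 CPM in MCR. The contig of the related CYP76C6, DN4244_c0_g1, was called in the other direction, with 63.1, 85.8 and 48.7 CPM in TCR and 224, 436 and 146 CPM in MCR. CYP86A1, the fatty acid ω-hydroxylase of root suberin, was matched by DN287071_c0_g1 with 41.0, 47.0 and 118 CPM in TCR and 51.5, 30.4 and 8.94 CPM in MCR, the root types overlapping. CYP94B3, which hydroxylates and so inactivates the hormone jasmonoyl-isoleucine, was matched by 6 contigs, 3 in each direction. The highest of them in MCR, DN2627_c0_g1, held 55.5, 50.5 and 96.9 CPM in TCR and 211, 273 and 275 CPM in MCR and was called. The highest in TCR, DN1502_c0_g1, held 145, 182 and 231 CPM in TCR and 126, 74.6 and 13.6 CPM in MCR and was not.

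**Figure D2:**
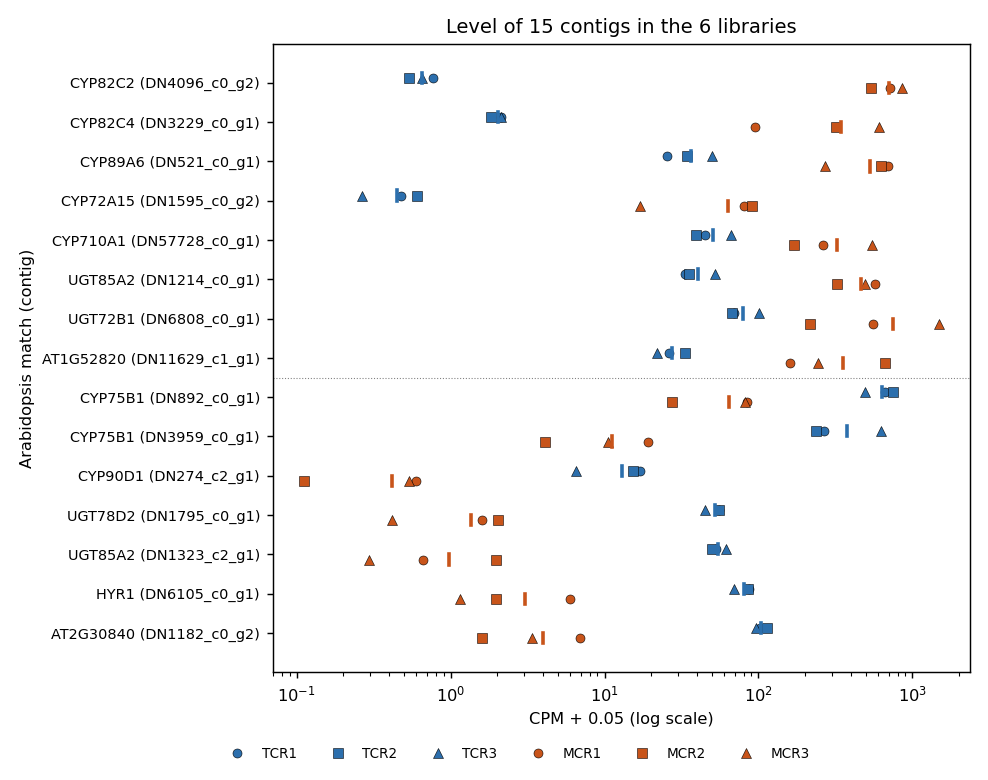
CPM with 0.05 added (logarithmic horizontal axis) of 15 contigs in the 6 libraries, TCR in blue and MCR in orange, with a symbol for each replicate number and a bar for the mean of a root type. The upper 8 contigs had all MCR libraries above all TCR libraries and the lower 7 the reverse, DN4096_c0_g2 (CYP82C2) spanning the widest gap.

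Among the UGT contigs 25 were higher in MCR (13 called) and 20 higher in TCR (11 called). The UGT85A group, whose UGT85A1 glucosylates the cytokinin zeatin in Arabidopsis, had contigs at both extremes. The UGT85A2 contig DN1214_c0_g1 held 33.5, 35.6 and 52.1 CPM in TCR and 568, 324 and 490.0 CPM in MCR, with a log2 fold change of 3.51 ± 0.36. The UGT85A3 contig DN10110_c0_g1 was alike, with 17.7, 19.1 and 26.2 CPM in TCR and 395, 225 and 357 CPM in MCR. A low UGT85A3 contig, DN3451_c1_g1, had no count in TCR and 3.26, 9.85 and 15.9 CPM in MCR, at least 160-fold higher in MCR by a floor of 3 counts over the TCR group. By contrast, the UGT85A2 contig DN1323_c2_g1 held 53.2, 49.7 and 61.7 CPM in TCR and 0.611, 1.93 and 0.243 CPM in MCR, with a log2 fold change of −5.87 ± 0.76, and the UGT85A1 contig DN3511_c0_g1 was also called higher in TCR. The matched genes UGT85A2, UGT85A3 and UGT85A1 lie near each other on Arabidopsis chromosome 1, from 7895068 to 7906607.

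UGT72B1, which glucosylates monolignols and xenobiotic phenols in Arabidopsis, was the most frequent match, with 8 contigs. Of these 6 were higher in MCR (3 called) and 2 in TCR (1 called). Contig DN6808_c0_g1 had the highest MCR level, with 69.3, 67.2 and 100.2 CPM in TCR and 558, 215 and 1481 CPM in MCR, and the MCR libraries spread over several-fold above all TCR libraries. The opposite contig DN22869_c0_g1 held 15.5, 17.5 and 20.4 CPM in TCR and 1.49, 0.249 and 0.608 CPM in MCR. All 4 UGT88A1 contigs were higher in MCR (2 called), the highest called one, DN2862_c0_g1, with 111, 130.1 and 102 CPM in TCR and 566, 237 and 639 CPM in MCR. A pair of UGT contigs without a gene symbol, matched to the nearby genes AT5G05880 and AT5G05900, had wide gaps. Of these DN1289_c0_g2 held 0.930, 0.981 and 0.762 CPM in TCR and 93.4, 80.3 and 192 CPM in MCR, and DN10474_c0_g1 lay at 0.109 to 0.184 CPM in TCR and 16.0 to 29.1 CPM in MCR.

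UGT contigs higher in TCR included that of UGT78D2, the flavonoid 3-O-glucosyltransferase, whose contig DN1795_c0_g1 held 55.7, 55.1 and 44.9 CPM in TCR and 1.56, 1.996 and 0.365 CPM in MCR, with a log2 fold change of −5.31 ± 0.64. The HYR1 contig DN6105_c0_g1 held 86.3, 85.8 and 68.8 CPM in TCR and 5.90, 1.93 and 1.09 CPM in MCR. HYR1 was named in Arabidopsis for glucosylating the synthetic growth inhibitor hypostatin. In both contigs the TCR libraries lay close together and the MCR libraries were low. UGT74F2, a salicylic acid glucosyltransferase, was matched by 4 contigs with 2 in each direction, and 3 of these overlapped between root types. The UGT with the highest TCR level in 1 library, DN554_c0_g1 (UGT73B5), held 526, 691 and 22.8 CPM in TCR and 105, 214 and 7.54 CPM in MCR, with TCR3 and MCR3 far below the others.

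The 2OG contigs carried no gene symbol, so that no substrate is named for them. Of 20 contigs 11 were higher in MCR (6 called) and 9 in TCR (8 called). Contig DN11629_c1_g1, matched to AT1G52820, had the highest MCR level among those called, with 26.3, 33.5 and 21.99 CPM in TCR and 159, 659 and 242 CPM in MCR. Contig DN1182_c0_g2, matched to AT2G30840, held 103, 113 and 96.9 CPM in TCR and 6.85, 1.56 and 3.34 CPM in MCR, with a log2 fold change of −4.73 ± 0.57. Its TCR libraries were alike and the highest MCR library held 6.85 CPM. Contig DN14580_c0_g1 (AT1G03400) had 825 counts in TCR and 1 in MCR, a ratio of 801 with a 95% counting interval of 143 to 31659. In the other direction, DN5157_c0_g1 (AT2G30830) had 347 counts in MCR but 1 in TCR, which gives a ratio of 358 with an interval of 63.8 to 14164. These intervals cover counting error alone. The 2OG contig of highest CPM, DN2374_c0_g1, also matched AT2G30830 and held 329, 478 and 1219 CPM in TCR and 629, 142 and 177 CPM in MCR, with MCR1 above TCR1 and TCR2.

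Named 2OG oxygenases whose description lacked the words of the rule were followed in the same table. Of its 4604 contigs past the minimum 3429 were higher in TCR. All 6 contigs of flavonoid synthesis were higher in TCR (4 called), as were the CYP75B1 and UGT78D2 contigs. The flavanone 3-hydroxylase (F3H) contig DN3266_c0_g1 held 1065, 1118 and 1043 CPM in TCR and 90.9, 10.5 and 40.9 CPM in MCR, and the leucoanthocyanidin dioxygenase (LDOX) contig DN8238_c0_g1 held 1314, 1288 and 669.6 CPM in TCR and 112, 32.1 and 90.0 CPM in MCR. The contig of the gibberellin-inactivating GA2OX4, DN7240_c1_g2, was called higher in TCR, with 33.1, 36.8 and 18.7 CPM in TCR and 0.271, 0 and 0.486 CPM in MCR. Of the 2 ACC oxidase contigs, which make ethylene, both had the higher mean in MCR and 1 was called, EFE (DN2632_c0_g1) with 324, 350.0 and 342 CPM in TCR and 1674, 588 and 1004 CPM in MCR. Among 6 P450 contigs whose description also lacked the words of the rule, 5 were higher in TCR (3 called). The remaining one, DN2812_c0_g1, matched FAH1, the ferulate 5-hydroxylase of syringyl lignin, and held 2.86, 4.97 and 3.32 CPM in TCR and 3919, 6007 and 9199 CPM in MCR. The other 3 FAH1 contigs and those of cinnamate 4-hydroxylase and GA3 were higher in TCR.

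All 5 terpene contigs had the higher mean in MCR, although 4 overlapped between root types and 1 was called. The summed level was 2748, 2237 and 1343 CPM in MCR and 704, 835 and 598 CPM in TCR. The contig with the highest CPM was DN2054_c0_g1 in all libraries but MCR3, where it was the GA1 contig. DN2054_c0_g1 matched TPS-CIN, the 1,8-cineole synthase of Arabidopsis roots, and held 568, 729 and 327 CPM in TCR and 1761, 1538 and 584 CPM in MCR, so that MCR3 lay within the TCR range. GA1, the ent-copalyl diphosphate synthase that begins gibberellin synthesis, was matched by DN2572_c0_g1 with 40.4, 46.1 and 99.6 CPM in TCR and 34.7, 633 and 736 CPM in MCR, MCR1 being below all TCR libraries. The called contig DN8340_c0_g1 matched TPS21, a sesquiterpene synthase that makes caryophyllene, and held 0, 0.306 and 0 CPM in TCR and 2.58, 37.9 and 15.4 CPM in MCR.

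Enzymes that supply prenyl diphosphates to terpene synthases were higher in TCR where they passed the CPM minimum. So were 3429 of the 4604 annotated contigs past it. The plastid pathway list of 9 genes and the list of 10 prenyl diphosphate and squalene genes gave 1 contig each. All 4 contigs of the mevalonate pathway past the minimum, of 11 genes in the list, were higher in TCR (3 called), whereas 5 more contigs of the list below the minimum were higher in MCR. The isoprenoid enzyme HDR of the plastid pathway (CLB6, DN1033_c0_g2) was called as well, with 27.7, 30.9 and 22.5 CPM in TCR and 1.56, 0.125 and 1.70 CPM in MCR. The farnesyl diphosphate synthase FPS2 (DN11504_c0_g1) held 133, 125 and 66.0 CPM in TCR and 16.4, 16.7 and 25.8 CPM in MCR and was called. The contigs of P450 reductase and cytochrome b5, the electron donors of P450s, were higher in TCR in 4 of 4 cases. This stands beside the 3429 of 4604 annotated contigs given above. Of the 4 contigs 0 were called by edgeR, 0 by limma-voom, 1 by DESeq2 and 4 with the replicate block. The P450 reductase ATR1 (DN21985_c0_g1) held 122, 133 and 118 CPM in TCR and 52.3, 38.1 and 77.3 CPM in MCR. The summed P450 level was higher in MCR, whereas this reductase contig was higher in TCR. Another 5 contigs of the reductase and cytochrome b5 list lay below the minimum, all higher in MCR. These contigs too were drawn from the authors' table of called contigs. Their directions and calls are therefore a description and carry no test.

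Contigs that shared 1 Arabidopsis match often differed in direction. Of the 78 matched genes 27 were matched by more than 1 member, 76 contigs in all, and 12 of the 27 had contigs in both directions. The summed level of these matches could differ little between root types where their contigs differed much. For UGT74F2 the sums were 530, 627 and 109 CPM in TCR and 598, 539 and 176 CPM in MCR, a ratio of 1.04. For CYP94B3 the ratio of the summed means was 1.47, and for UGT85A2 it was 4.16. The CYP706A6 match joined the abundant DN1136_c0_g1, higher in MCR, with DN8278_c0_g1, which had 381 counts in TCR and 3 in MCR (a ratio of 123 with an interval of 41.9 to 600.3), and with DN15546_c0_g1, which had no count in MCR and was at least 27.5-fold higher in TCR. The 8 UGT72B1 contigs summed to 346 to 438 CPM in TCR and 1023 to 1820 CPM in MCR. Contigs of 1 assembly cluster, which share the number after DN, were seldom split, since 1 of the 13 clusters with more than 1 member held both directions. Contigs with 1 match may be paralogs, alleles or fragments of 1 gene, and 99 of the 127 contigs had a count that was not whole in some library, as happens where reads are divided between similar contigs. The values of such contigs are therefore uncertain by an amount that cannot be read from the counts.

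**Figure D3:**
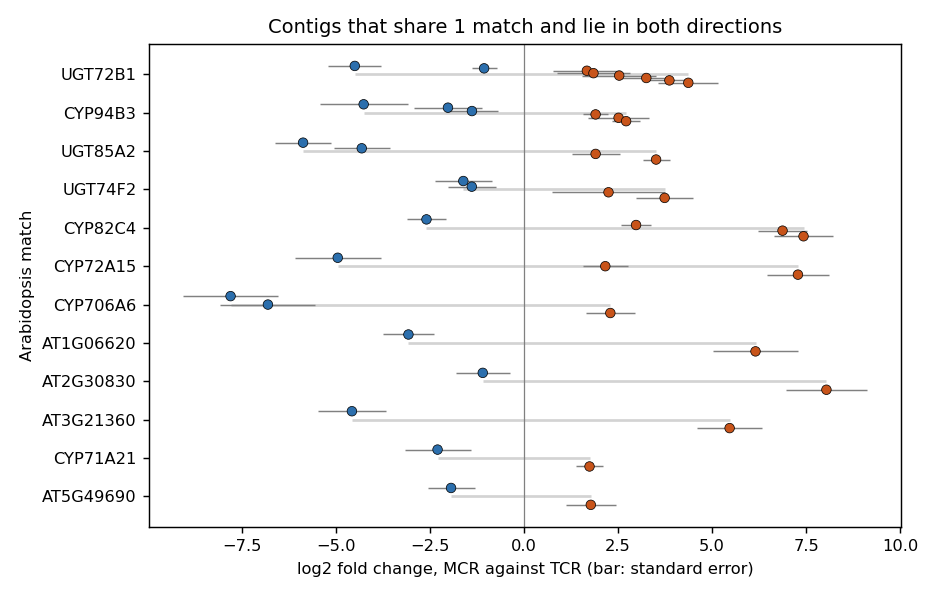
Log2 fold change of MCR over TCR with its SE (horizontal axis) for the 42 contigs that share an Arabidopsis match with a contig of the other direction, 1 line per match. Each of the 12 matches had points on both sides of 0, UGT72B1 with 6 above and 2 below.

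The third libraries were low together in many UGT contigs. A contig was counted where the third library lay at least 1 below the mean of the other libraries of its root type on the log2 scale, with 0.5 CPM added, in both root types. This definition was chosen after the values had been seen. It held for 14 of 45 UGT contigs (31.1%), 2 of 57 P450 contigs (3.51%), 2 of 20 2OG contigs (10.0%) and 267 of 4477 other annotated contigs past the minimum (5.96%). No UGT contig was high in both TCR3 and MCR3, and the correlation between the shift of TCR3 and that of MCR3 was 0.71 over the 45 UGT contigs, −0.05 over the 57 P450 contigs and 0.39 over the 4477 others. These values are descriptions across contigs that share the same 6 libraries. The 14 contigs matched 7 genes and came from 9 of the 35 UGT assembly clusters, 5 contigs matching UGT72B1, 3 UGT74F2 and 2 UGT88A1. They were not of 1 direction, as 11 were higher in MCR and 3 in TCR.

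Several of these UGT contigs varied about as much between replicates as between root types. The UGT74F2 contig DN1285_c0_g2 held 49.1, 72.2 and 0.381 CPM in TCR and 216, 342 and 19.3 CPM in MCR. The contig DN3252_c2_g1 (AT5G65550) held 13.6, 18.8 and 1.42 CPM in TCR and 621, 262 and 21.8 CPM in MCR. In the former MCR3 was below TCR1 and TCR2, in the latter it was just above them, and neither contig was called. The contig DN3550_c0_g2 (AT4G14090) was like the former, with 87.9, 85.4 and 2.67 CPM in TCR and 361, 143 and 25.7 CPM in MCR. The high level of the summed UGT contigs in MCR was present in all 3 replicate numbers, with 2824, 3304 and 1605 CPM in TCR and 5949, 4813 and 4586 CPM in MCR. The numbers of contigs detected were also lowest in the third library of each root type, 85093 in TCR3 and 87361 in MCR3. What sets the third libraries apart was not tested.

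**Figure D4:**
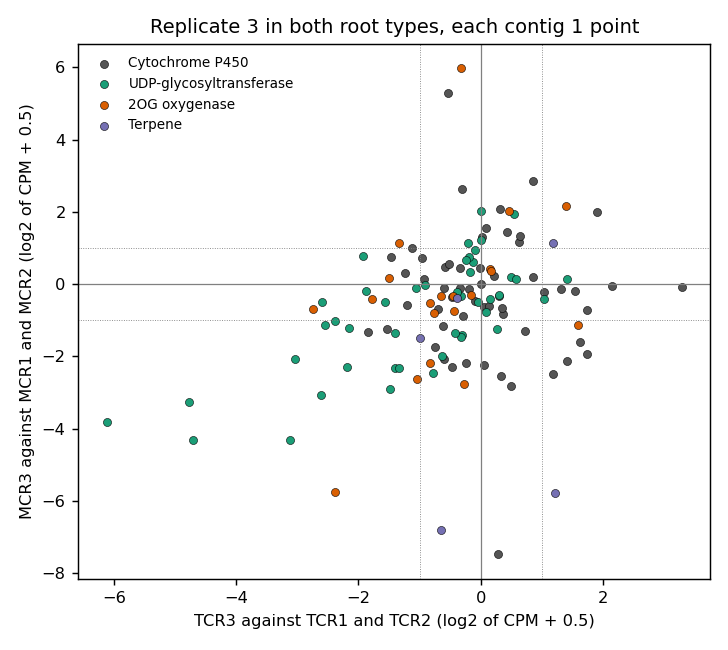
Shift of the third library from the mean of the other libraries of its root type (log2, 0.5 CPM added), TCR on the horizontal and MCR on the vertical axis, 1 point per contig coloured by family, with dotted lines at −1 and 1. UGT contigs filled the lower left, where 14 of 45 lay beyond both lines, compared with 2 of 57 P450 contigs.

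Some means in MCR rested on a single library. In 10 of the 75 contigs higher in MCR (13.3%) the highest library was at least 3 times the sum of the other MCR libraries, compared with 97 of 1100 other annotated contigs higher in MCR (8.82%). In TCR this held for 0 of the 52 contigs higher there and for 19 of 3377 others (0.563%). This definition too was chosen after the values had been seen. The library was MCR1 in 7 contigs and MCR3 in 3. CYP71B34 (DN722_c0_g2) held 66.1, 79.3 and 88.5 CPM in TCR and 746, 44.4 and 1.70 CPM in MCR, so that MCR1 alone was above TCR. The second TPS-CIN contig, DN494_c0_g1, held 91.1, 51.4 and 167 CPM in TCR and 829, 22.1 and 7.30 CPM in MCR, and the second TPS21 contig, DN7253_c0_g1, held 4.29, 8.28 and 3.81 CPM in TCR and 119.9, 5.99 and 0.0608 CPM in MCR. In these 3 contigs the other MCR libraries were within or below the TCR range. Without MCR1, 71 of the 127 contigs had the higher mean in MCR, the 4 that turned being CYP71B34, these terpene contigs and DN8738_c0_g1 (AT5G05600). Without MCR3 the number was 74, DN913_c0_g2 (AT1G20270) having turned. Of the 10 contigs 2 were called, DN2364_c0_g1 (AT1G06620) and DN981_c0_g1 (CYP82C2), and in both every MCR library exceeded every TCR library.

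**Figure D5:**
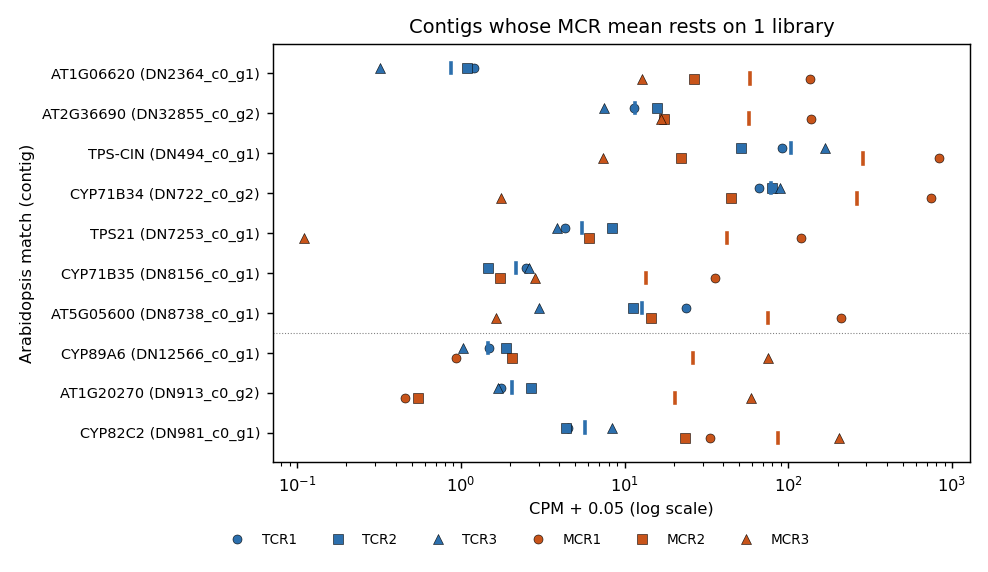
CPM with 0.05 added (logarithmic horizontal axis) of the 10 contigs whose MCR mean rests on 1 library, with TCR in blue, MCR in orange, a symbol per replicate number and a bar for the mean. MCR1 (circles) was the high library in the upper 7 and MCR3 (triangles) in the lower 3, and the other MCR libraries mostly lay among or below the TCR libraries.

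The spread between MCR libraries was wider in the members than in other annotated contigs past the minimum. For contigs higher in MCR the median ratio of the highest to the lowest MCR library was 4.13 in the members and 2.43 in the others, and within TCR it was 2.20 and 1.80. For contigs higher in TCR the ratio of highest to lowest within MCR was 4.43 and 2.37, while within TCR it was 1.65 and 1.77. Threshold and direction held in all 14 refits with another setting for 18 contigs, 12 higher in MCR and 6 in TCR. Those with a gene symbol were CYP82C2 (DN4096_c0_g2), 3 CYP82C4 contigs, CYP72A8, CYP72A15 (DN1595_c0_g2), UGT85A2 (DN1214_c0_g1) and UGT85A3 (DN10110_c0_g1) in MCR, and CYP75B1 (DN3959_c0_g1), UGT78D2 and UGT85A2 (DN1323_c2_g1) in TCR.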

How the data were processed

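RNA-Seq was performed on poly(A) RNA of 3 TCR and 3 MCR libraries. The authors trimmed reads with Trimmomatic 0.39, assembled contigs de novo with Trinity, deposited estimated counts per contig from Salmon 1.9.0, and annotated contigs by their Arabidopsis match (TAIR10). The table of annotated contigs that the authors deposited gave normalized CPM values, which served for the CPM minimum and for nothing else. Its fold changes, log2 values, p-values and q-values of the authors' own comparison (edgeR 4.0.14) were not used. The members and the lists of pathway and marker genes were chosen with earlier results of these data known.

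Estimated counts were rounded to whole numbers and fitted with edgeR 4.0.16 in R 4.3.3 (TMM, quasi-likelihood test, root type as the sole term) over the 49813 contigs whose mean reached 0.4 CPM in at least 1 root type, 134186 being removed. Called contigs had an adjusted p below 0.05 (Benjamini-Hochberg over all contigs tested) and differed by at least 1 on the log2 scale. The SE is the fold change divided by the square root of F. No contig sequences or lengths were used here. Libraries held 13583740 to 19119494 counts, and TMM factors were 0.868 to 1.18.

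Libraries of the same number deviated together from their root type means (r of 0.336, 0.363 and 0.477 for replicates 1, 2 and 3 over 14706 contigs with a mean CPM above 5), while pairs of different number gave r of -0.502 to 0.316. TCR2 with MCR1 (0.316) and TCR1 with MCR2 (0.185) lay near the values for replicates 1 and 2, so that the third libraries were the ones set apart. Since every pair of the same number exceeded 0.1, the number was also entered as a block in a separate fit. The pairing rests on the numbers in the titles alone.

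Members were named by level (up to 4 per family and direction), by fold change (up to 3 with a mean CPM of 10 or more), by hormone, phenylpropanoid, fatty acid or sterol role, by a match shared across directions and by closeness to the CPM minimum. CYP76C1, CYP82G1, CYP86A1 and CYP714A1 and the contigs shown for the third libraries or for a single library were chosen after their values were seen where these rules did not reach them. Tested on simulated data of 42299 contigs, the fit called 121 of 200 contigs changed by a log2 fold of 3 (60.5%) and 1 unchanged contig. The simulated libraries were drawn independently, without the shared deviation of the third libraries, so these rates may not hold for the real libraries. Alternatives were RLE factors, library size alone, other filters, DESeq2 1.42.0, limma-voom (limma 3.58.1), the block, no fold minimum, each library left out, a minimum of 2 CPM and each match counted once. Leaving out TCR3 and MCR3 together, and the direction of the means without each library, were added after seeing the data.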

Additional observations from a re-analysis of the deposited data

How the results depend on the processing

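The direction of a member depended on 1 library in few cases. Of the 127 contigs 121 kept their sign in all 14 refits and 6 did not, none of the 6 being called. The number with the higher mean in MCR ranged from 71 to 75 with each library left out. Counts of calls moved more. With each library left out, members called higher in MCR ranged from 13 to 51 and higher in TCR from 6 to 34, and all contigs from 208 to 3200 and from 327 to 4260. TCR1 and TCR2 gave the lowest values (13 and 14 members higher in MCR, 6 and 7 in TCR). With the replicate block 68 and 52 members and 10008 and 7696 of all contigs were called higher in MCR and TCR. Keeping every contig with a read gave 75 and 52 members and 4959 contigs higher in MCR, a CPM minimum in at least 3 libraries 2173 contigs higher in MCR, and DESeq2 4119 and 5068 contigs. Without both TCR3 and MCR3, 8063 and 7805 of all contigs were called. The remaining counts stayed within 1.5 times of 43 and 29 members, and of 1196 and 2981 of all contigs. The cause of these shifts was not tested. Each Arabidopsis match counted once gave 33 and 26, and a minimum of 2 CPM, met by 120 members, 41 and 28. Of the values of single named contigs 98 moved by more than 1 SD between replicates and 1064 by less, with no called contig changing sign. At these depths a contig at 0 counts in 3 libraries is known only to lie below 3 counts.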

Other observations

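The 68 contigs with the same words that missed the CPM minimum were mostly higher in MCR, 65 against 3. Of them 3 were called, all higher in MCR, compared with 2.40% of all contigs tested. The directions of all annotated contigs below the minimum were not counted, so nothing about these enzyme families is read from the 65. The 68 contigs comprised 43 P450, 14 UGT, 9 2OG and 2 terpene contigs. Together they held 461, 509 and 76.2 CPM in MCR and 40.8, 50.2 and 5.33 CPM in TCR. The third library was thus the lowest of each root type, and MCR3 was the lowest MCR library in 43 of the 68 contigs. The 14 UGT contigs among them summed to 148, 147 and 3.04 CPM in MCR. A contig had to miss 1 CPM in some library of each root type to fall in this set, and 1 low library was enough for that. The 3 called contigs matched CYP71B35, CYP71B10 and CYP82C4, the last (DN8564_c0_g1) with 2.04, 0.686 and 4.56 CPM in MCR and 0.0716, 0.0613 and 0.109 CPM in TCR.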
